A study of Homo sapiens with 9 samples.

Results

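The snoRNA host long non-coding RNAs were followed across nuclear and cytoplasmic RNA of HEK293 cells, a line derived from human embryonic kidney. The 10 genes comprised GAS5, SNHG1, SNHG5, SNHG6, SNHG8, SNHG12, SNHG15, SNHG16, ZFAS1 and DANCR, chosen by name. These were 10 of the 56349 genes to which the deposited transcripts could be assigned, and 117 of the 215170 transcripts listed in each sample. Cells received either control siRNA or siRNAs against WTAP and KIAA1429 (the gene now called VIRMA), subunits of the complex that deposits N6-methyladenosine (m6A) on RNA. Both siRNA treatments (10 nM) lasted 72 hours and were renewed by transfecting again after 48 hours. No other agent was named for either group. The 9 samples were 3 control nuclear, 1 control cytoplasmic (replicate 2), 3 WTAP/KIAA1429 RNAi nuclear and 2 WTAP/KIAA1429 RNAi cytoplasmic (replicates 1 and 2). The cells are 1 line, and nothing in the sources used here says whether replicates came from separate cultures, so p-values measure the spread between these samples. The spread of the single control cytoplasmic sample was taken from the other groups in every test below.

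A snoRNA host gene is transcribed as a longer RNA whose introns carry small nucleolar RNAs. Splicing frees the introns, which are trimmed to snoRNAs that guide chemical modification of ribosomal RNA, while the joined exons are left as a long non-coding RNA. Many of these spliced RNAs begin with a pyrimidine tract like that of ribosomal protein mRNAs (a 5′ terminal oligopyrimidine, or TOP, start), are engaged by ribosomes in the cytoplasm and are degraded by nonsense-mediated decay, the pathway that removes RNAs with premature stop codons. A transcript form that keeps its introns would still carry the snoRNA sequence.

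The members differ in how many snoRNAs they hold. In the RefSeq gene table (assembly GRCh38.p14, used for names and neighbours only), 36 snoRNA genes lay within the 10 members. GAS5 held 11 and SNHG1 held 9, mostly box C/D snoRNAs, which guide 2′-O-methylation. SNHG12 held 4, SNHG16 and ZFAS1 held 3 each, SNHG5 held 2, and SNHG6, SNHG8, SNHG15 and DANCR held 1 each. The single snoRNAs of SNHG8, SNHG15 and DANCR (SNORA24, SNORA9 and SNORA26) are of the box H/ACA type, which guides pseudouridylation. The mature snoRNAs themselves were not measured well by these libraries of mRNA: the 7 snoRNA genes annotated inside members in GRCh37 reached at most 12 estimated counts in a nuclear sample and at most 2 in a cytoplasmic sample.

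In GRCh37 coordinates (hg19), GAS5 lies at chr1:173827697-173838020 (minus strand), SNHG12 at chr1:28905050-28909644 (minus), SNHG1 at chr11:62619450-62623425 (minus), SNHG5 at chr6:86360209-86388650 (minus), SNHG15 at chr7:45022618-45026560 (minus), SNHG16 at chr17:74553809-74667067 (plus), SNHG8 at chr4:119199858-119206471 (plus), DANCR at chr4:53578492-53589790 (plus) and ZFAS1 at chr20:47894715-47916137 (plus). All are annotated as long non-coding genes. Several overlap genes of the other strand, such as ZBTB37 for GAS5, TRNAU1AP for SNHG12, ZNFX1 for ZFAS1 and PRSS12 for SNHG8. The strand setting of the authors' quantification is not given in the sources used here, so reads of such partners could not be told apart with certainty. The 10 genes had 362 annotated transcripts, from 91 for GAS5 to 8 for SNHG6, of which the files listed 29 for GAS5, 25 for SNHG1, 12 each for SNHG5 and SNHG12, and 4 to 10 for each other member.

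The first 20 bases of the most abundant transcript not classed as retained_intron are shown for 9 members, so that starts with and without the TOP-like letters CTTT can be compared, with the first CTTT in capitals. They were read from GENCODE version 44 transcripts on GRCh37, whose ends can differ from those of the older forms the authors quantified.
GAS5-221, chr1:173837108-173837127 (minus): CTTTtcgaggtaggagtcga
SNHG12-212, chr1:28908366-28908385 (minus): cCTTTctccccgccgcattc
ZFAS1-201, chr20:47895179-47895198 (plus): CTTTcgcgtctgcggtgccc
SNHG8-201, chr4:119199910-119199929 (plus): ggcCTTTcacattcgggaag
SNHG5-202, chr6:86388447-86388466 (minus): gctgcgcacttcggtCTTTt
SNHG1-211, chr11:62623339-62623358 (minus): tctcatttttctactgctcg
SNHG15-203, chr7:45026414-45026433 (minus): tccactgagttgacacgcag
DANCR-201, chr4:53578492-53578511 (plus): gccccgctcaggatcttccc
SNHG16-206, chr17:74553878-74553897 (plus): agacatggccactccagtcg
These letters, searched on the transcript strand, were found in 5 of the 10 members and in 6.97% of the 16181 tested genes' most abundant transcripts. GAS5-221 and ZFAS1-201 began with them, while SNHG5-202 had them from base 16. SNHG1-211 begins with a run of T and C but does not hold the 4 letters in this window. The match is a description of the annotated start, and starts were not mapped here.

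Levels are given as CPM, a sample's counts scaled to a common total after TMM scaling between samples. Totals ranged from 11627403 to 19036141 estimated counts per sample, at which 3 counts correspond to 0.19 to 0.303 CPM before that scaling. The siRNAs lowered their targets. WTAP lay at 23.0 to 27.6 CPM in control nuclei, 12.2 to 15.5 CPM in RNAi nuclei, 37.5 CPM in the control cytoplasm and 10.8 and 11.9 CPM in the RNAi cytoplasm, or 56.2% and 30.3% of control by fraction (adjusted p = 0.0169 and 0.00079, edgeR). KIAA1429 lay at 13.2 to 19.8, 5.56 to 9.18, 17.4, and 4.05 and 4.21 CPM in the same order, or 47.2% and 23.8% of control (adjusted p = 0.0314 and 0.00268). The summed nuclear marker RNAs MALAT1, NEAT1 and KCNQ1OT1 lay at 255 to 419 CPM in the nuclear samples, 33.2 CPM in the control cytoplasmic sample and 19.7 to 20.5 CPM in the RNAi cytoplasmic samples. The control cytoplasmic sample thus held more of these nuclear RNAs than either RNAi cytoplasmic sample, and the part of that in the comparisons below was not tested. Mitochondrially encoded RNAs made up 11.2% to 27.7% of the CPM, with 13.7% to 27.7% among the nuclear samples. The 4 HEK293 markers (VIM, KRT8, KRT18 and NEFM) were expressed in all samples. Of the markers of other cell types, HBB and CD3E were at 0 in every sample, PTPRC and ALB had at most 3 estimated counts, and COL3A1 reached 5.04 CPM.

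All 10 members passed the filter on low counts, and their levels spanned about 3 orders of magnitude. SNHG16 was by far the most abundant member in each of the 4 groups, on the TPM scale as well, which divides by transcript length (336 ± 26.9 TPM, SD, n = 3, in control nuclei). In control nuclei it was followed by SNHG1 (167 ± 60.4 TPM), DANCR (123 ± 27.4 TPM), SNHG15 (103 ± 17.6 TPM) and GAS5 (58.4 ± 20.3 TPM). The samples of SNHG1 and of DANCR overlapped with those of the next gene in that order, and those of SNHG15 lay above those of GAS5. The lowest 5 members, SNHG8, SNHG5, ZFAS1, SNHG6 and SNHG12, lay between 11.1 and 21.7 TPM and each overlapped with its neighbour. The order in the cytoplasm differed for SNHG1, which came after DANCR and SNHG15 there, and SNHG12 was last in both cytoplasmic groups (1.93 TPM in the control sample and 1.42 ± 0.0958 TPM, SD, n = 2, after RNAi).

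**Figure D1:**
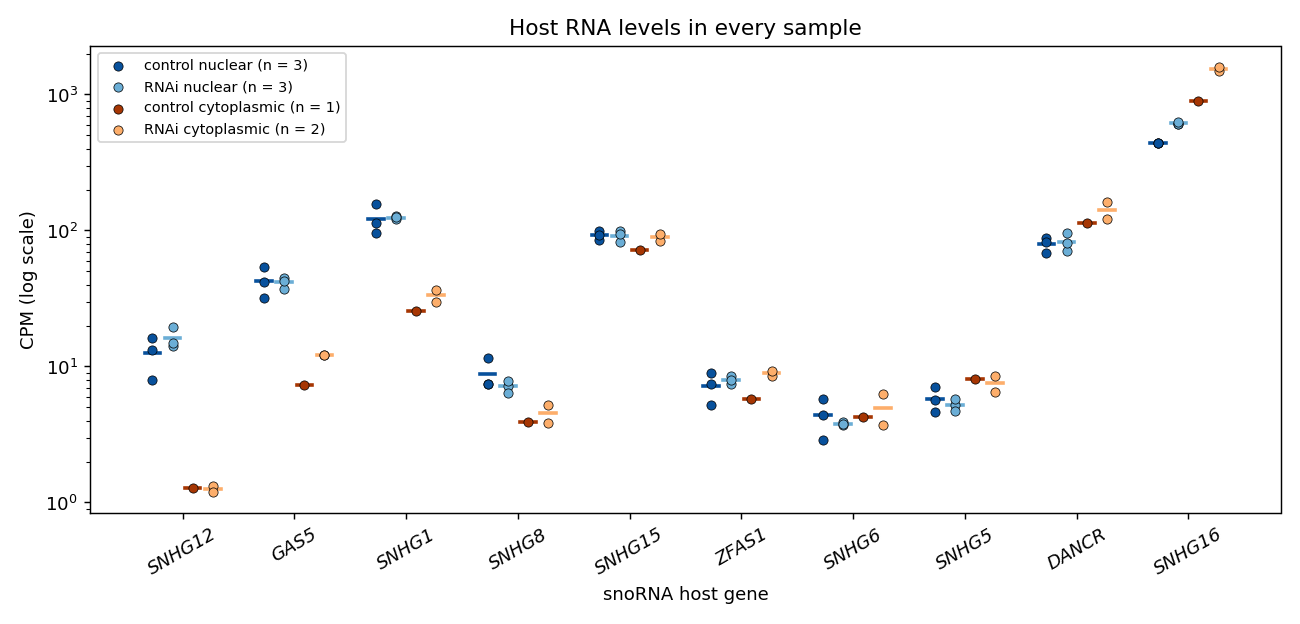
Level of each of the 10 host RNAs in CPM on a log axis, with 1 point per sample, horizontal lines at group means and colours for the 4 groups. SNHG12, GAS5 and SNHG1 sit higher in all 6 nuclear samples than in any of the 3 cytoplasmic samples, and SNHG16 sits lower in all 6.

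The first comparison set each host RNA's level in the nucleus against that in the cytoplasm of control cells. These levels are relative to the other RNAs of the same fraction, and RNA amounts per nucleus or cytoplasm were not measured. The fold changes therefore do not show how a gene's molecules were split within a cell. Nuclear and cytoplasmic are meant in this relative sense below. Of the 10 members, 6 passed the test (Benjamini-Hochberg FDR under 0.1 and an absolute log2 fold change over 0.5, edgeR quasi-likelihood test), against a background of 50.8% of all genes tested. Of these, 4 were higher in the nucleus, where 28% of all genes were, and 2 were higher in the cytoplasm, where 22.7% of all genes were. The nuclear members were SNHG12, GAS5, SNHG1 and SNHG8, and the cytoplasmic members were SNHG16 and DANCR. The median over the members was 0.34 on the log2 scale and over all genes 0.04.

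SNHG12, which holds box C/D and H/ACA snoRNAs, was the most nuclear member. It measured 7.97, 16.2 and 13.3 CPM in control nuclear replicates 1, 2 and 3 and 1.28 CPM in the control cytoplasmic sample. Every nuclear sample was thus above the cytoplasmic one, with a log2 fold change of 3.28 ± 0.46 (SE, adjusted p = 0.000342).

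GAS5, the growth arrest-specific RNA named for its accumulation in arrested cells, measured 31.9, 54.2 and 41.6 CPM in the same nuclei and 7.36 CPM in the cytoplasm. Its log2 fold change was 2.53 ± 0.29 (adjusted p = 0.000129). SNHG1, host of the snoRNAs SNORD25 to SNORD31, measured 95.7, 156 and 113 CPM in the nuclei and 25.4 CPM in the cytoplasm, a log2 fold change of 2.26 ± 0.26 (adjusted p = 0.000131). Replicate 2 was the highest of the control nuclear samples for SNHG12, GAS5 and SNHG1 alike, and it also had the lowest share of mitochondrial RNA among them (13.7%). The part of that share in the levels was not tested. SNHG8 was nuclear to a lesser degree, with 7.42, 11.5 and 7.43 CPM against 3.89 CPM, and a log2 fold change of 1.18 ± 0.32 (adjusted p = 0.0122).

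SNHG16, host of SNORD1A, SNORD1B and SNORD1C, lay at 439 to 440 CPM in the 3 control nuclear samples and at 897 CPM in the control cytoplasm. The nuclear samples hardly differed from each other, and the log2 fold change was -1.03 ± 0.10 (adjusted p = 6.16e-05). DANCR, known as an RNA that holds progenitor cells back from differentiation, measured 68.5, 87.9 and 82.0 CPM in the nuclei and 113 CPM in the cytoplasm, with a log2 fold change of -0.51 ± 0.20 (adjusted p = 0.0565). DANCR lay just past the fold limit, and its call was lost, among others, without control nuclear replicate 1 (-0.43) and without RNAi nuclear replicate 1 or 3 (-0.50 each). The remaining members did not pass. SNHG15 was at 0.36 ± 0.15, below the fold limit at an adjusted p of 0.0668, SNHG5 at -0.49 ± 0.26, ZFAS1 at 0.33 ± 0.28 and SNHG6 at 0.04 ± 0.38.

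After RNAi of WTAP and KIAA1429, the nucleus was again compared with the cytoplasm, now with 3 samples against 2. Here 7 members passed, against 57.8% of all genes tested. The same 4 members as in control cells were higher in the nucleus (32.9% of all genes), and SNHG16, DANCR and SNHG5 were higher in the cytoplasm (24.9% of all genes). The members' median was -0.06 and that of all genes 0.04. Without TMM scaling the median of all genes was 0.30, and 6456 genes were higher and 2090 lower in the nucleus, against 5316 and 4034 with it. SNHG12 measured 14.2, 19.5 and 14.9 CPM in the nuclei and 1.32 and 1.20 CPM in the cytoplasm, a log2 fold change of 3.66 ± 0.36 (adjusted p = 2.18e-05). SNHG1 measured 128, 121 and 125 CPM against 36.7 and 29.96 CPM, a log2 fold change of 1.90 ± 0.20 (adjusted p = 2.67e-05). In each case the nuclear samples lay far above both cytoplasmic ones.

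GAS5 lay at 44.8, 36.98 and 42.6 CPM in the RNAi nuclei and at 12.1 and 12.2 CPM in the RNAi cytoplasm, a log2 fold change of 1.77 ± 0.21 (adjusted p = 6.95e-05). SNHG16 lay at 605 to 629 CPM in the nuclei and at 1496 and 1588 CPM in the cytoplasm, a log2 fold change of -1.33 ± 0.08 (adjusted p = 2.11e-06). For both genes the fractions did not overlap. SNHG8 was at 0.67 ± 0.26 (adjusted p = 0.0411), DANCR at -0.79 ± 0.16 (adjusted p = 0.00183) and SNHG5 at -0.52 ± 0.22 (adjusted p = 0.0635). The DANCR call was lost with limma on log2(TPM + 1) (-0.39, adjusted p = 0.182) and on log2(TPM + 0.1) (-0.39, adjusted p = 0.243). SNHG5 was past the fold limit by a narrow margin. Its call was lost, among others, under DESeq2 (adjusted p = 0.137) and with library size only (-0.26). It was also lost without RNAi cytoplasmic replicate 1 (-0.29), control nuclear replicate 1 (-0.48) or 3 (-0.48), or RNAi nuclear replicate 1 (-0.50) or 2 (-0.45). SNHG8 dropped to 0.20 when average transcript length was used as an offset, and the call was then lost. It was also lost without RNAi cytoplasmic replicate 1 (0.44) and without RNAi nuclear replicate 3 (adjusted p = 0.101).

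**Figure D2:**
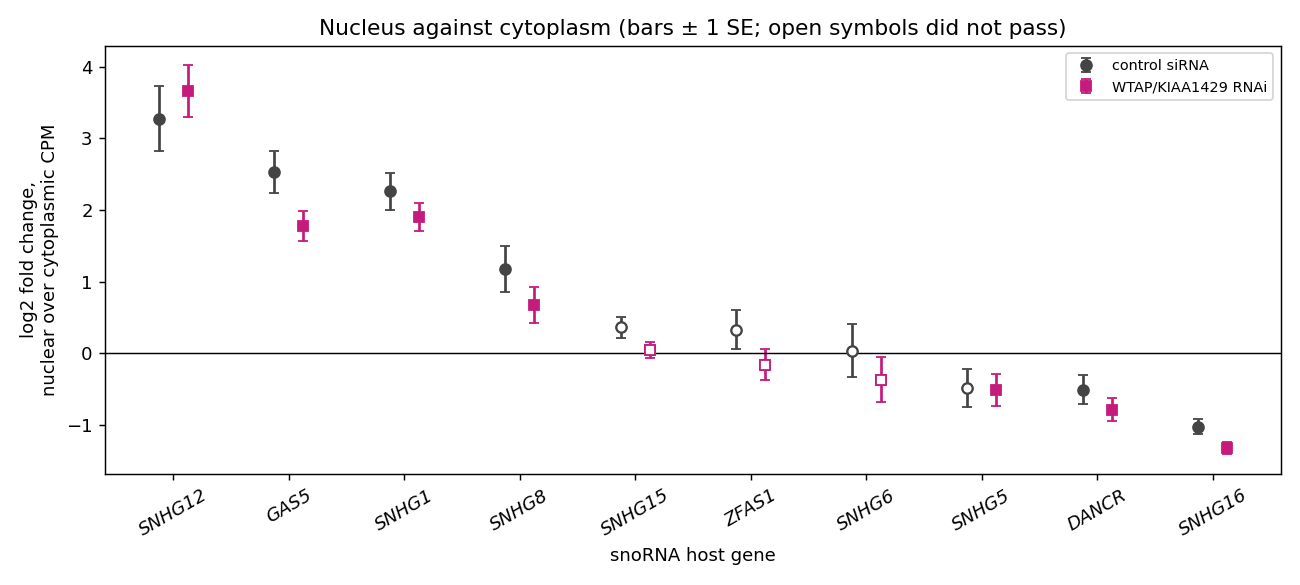
Log2 fold change of nuclear over cytoplasmic CPM for each member in control cells (circles) and after RNAi (squares), with bars of 1 SE and open symbols for values that did not pass the test. SNHG12, GAS5, SNHG1 and SNHG8 lie above 0 and SNHG16 and DANCR below 0 with both siRNAs.

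Within 1 gene, the estimates of single transcripts could differ in the fraction where they were higher. The annotators give the type retained_intron to a transcript that keeps intron sequence relative to other forms of its gene, and 41 of the members' 117 listed transcripts carried it. Of the 22 of them that passed the filter on low counts, 16 had under 10 estimated counts in every cytoplasmic sample and 5 had 0 in all 3. These were tested because of their nuclear counts, which favoured a higher nuclear value, so how many of them passed is not read as a result. Of all transcripts tested 31.3% passed between fractions in control cells (20.4% higher and 10.8% lower in the nucleus) and 42.7% after RNAi (28% higher and 14.7% lower). Because salmon divides shared reads between overlapping forms, the counts of each gene were also summed over its retained_intron transcripts and over all others. The sums were chosen after the values of single transcripts had been seen. Estimates were made on annotated transcripts, so reads of RNA not yet spliced could not be told apart from those of intron-holding forms. In GAS5 the retained_intron sum reached 10 counts in all 3 cytoplasmic samples too (24.6 to 53.5 counts). In SNHG1 it lay at 38.1 counts in the control cytoplasm and 27.8 and 5.1 in the RNAi cytoplasm. The filter asked for 10 counts in at least 3 samples, so the SNHG1 sum passed it only with nuclear samples, which favoured a higher nuclear value. In SNHG5, SNHG6, SNHG12 and SNHG16 the sum stayed under 10 counts in all 3 cytoplasmic samples. These sums passed the filter through the nuclear samples, and their direction was favoured by it. In these fits 50.8% of features passed between fractions in control cells (28.1% higher and 22.7% lower in the nucleus) and 57.8% after RNAi (32.9% higher and 24.9% lower).

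Introns that stayed in the most abundant intron-holding form are shown at their start to make the difference between forms visible. Each line gives 10 bases of the exon that precedes the intron and 15 of the intron in GRCh37, with the first 2 intron bases in capitals. A spliced form breaks off before the capitals, and the named transcript reads through them.
GAS5-210, chr1:173835884-173835908 (minus): agctactgaaGTaagttgaaaattc
SNHG1-225, chr11:62620268-62620292 (minus): ataaaaaatgGTaggtatctgttta
SNHG12-201, chr1:28907057-28907081 (minus): aggggacctgGTaggtttcttttgg
SNHG15-207, chr7:45023406-45023430 (minus): ctgtgcagggGTaagtgtgcaggaa
The GAS5 intron spans 193 bases and was removed in 69 of the 89 annotated transcripts that span it. The SNHG1 intron spans 129 bases and was removed in 61 of 75, the SNHG12 intron spans 578 bases and was removed in 12 of 16, and the SNHG15 intron spans 499 bases and was removed in 10 of 13.

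In GAS5 the retained_intron sum lay at 25.1, 46.1 and 33.6 CPM in control nuclei, 34.6, 29.0 and 32.7 CPM in RNAi nuclei, 3.10 CPM in the control cytoplasm and 4.21 and 2.73 CPM in the RNAi cytoplasm. The nuclear samples were all above the cytoplasmic ones, with log2 fold changes of 3.49 ± 0.38 in control cells (adjusted p = 9.71e-05) and 3.18 ± 0.29 after RNAi (adjusted p = 1.39e-05). The other GAS5 transcripts differed far less between fractions. They lay at 6.80, 7.97 and 7.96 CPM in control nuclei and 4.26 CPM in the control cytoplasm (log2 fold change 0.83 ± 0.24, adjusted p = 0.0156). After RNAi they lay at 10.2, 8.06 and 9.95 CPM in the nuclei and 7.95 and 9.41 CPM in the cytoplasm (0.13 ± 0.18, adjusted p = 0.551). Retained_intron forms made up 65.9% to 77.2% of GAS5 TPM in the nuclear samples and 18.98% to 38.1% in the cytoplasmic ones. The largest single contribution came from GAS5-210, with 148 to 357 estimated counts in each nuclear sample, 0 in the control cytoplasm and 14.6 and 7.4 in the RNAi cytoplasm. The 12-exon form GAS5-221 had 11.9 to 44.9 estimated counts in nuclear samples and 31.9 to 49.8 in cytoplasmic samples, which overlapped.

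SNHG1 showed the same division at a higher level. Its retained_intron sum lay at 52.0, 98.7 and 60.7 CPM in control nuclei, 80.5, 70.3 and 75.6 CPM in RNAi nuclei, 2.31 CPM in the control cytoplasm and 2.18 and 0.55 CPM in the RNAi cytoplasm. No cytoplasmic sample came near a nuclear one, and the log2 fold changes were 4.93 ± 0.51 in control cells (adjusted p = 7.44e-05) and 5.67 ± 0.42 after RNAi (adjusted p = 4.43e-06). This sum passed the filter only with nuclear samples, which favoured that direction, so the p-values are not read as a result. The other SNHG1 transcripts were also higher in the nucleus but by less, 1.14 ± 0.18 in control cells (adjusted p = 0.000613) and 0.61 ± 0.13 after RNAi (adjusted p = 0.0027). The 11-exon form SNHG1-211 led the cytoplasm, with 58.8% of the gene's TPM in the control sample and 62.0% after RNAi, against 21.2% and 18.3% in the nuclei.

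In SNHG12 the retained_intron sum lay at 7.28, 13.8 and 12.2 CPM in control nuclei, 11.96, 17.1 and 13.8 CPM in RNAi nuclei and 0.55 to 0.78 CPM in the 3 cytoplasmic samples. The log2 fold changes were 4.31 ± 0.52 in control cells (adjusted p = 0.000147) and 4.37 ± 0.39 after RNAi (adjusted p = 1.22e-05). This sum passed the filter through the nuclear samples, which favoured that direction, so the p-values are not read as a result. The other SNHG12 transcripts lay at only 0.76 to 2.39 CPM in nuclear samples and 0.55 to 0.73 CPM in cytoplasmic ones. Their log2 fold change was 0.95 ± 0.69 in control cells (adjusted p = 0.279) and 1.63 ± 0.59 after RNAi (adjusted p = 0.0348). The latter call was lost without RNAi cytoplasmic replicate 1 (1.49). These transcripts had 11.9 counts in the control cytoplasm and 7.4 and 6.2 in the RNAi cytoplasm. They too passed the filter through the nuclear samples, so their p-values are not read as a result. Most of the nuclear SNHG12 CPM was assigned to transcripts of the retained_intron type.

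In SNHG16 the retained_intron transcript was a trace of the gene, while the other transcripts were higher in the cytoplasm. This trace lay at 1.64 to 3.27 CPM in nuclear samples, 0.30 CPM in the control cytoplasm and 0 and 0.11 CPM in the RNAi cytoplasm. Its log2 fold change in control cells was 2.57 ± 0.58 (adjusted p = 0.00488). As with the SNHG6 and SNHG5 values below, it passed the filter through the nuclear samples. That favoured a higher nuclear value, so these differences are given as descriptions and not read as results. For SNHG6 the 2-exon form SNHG6-204 had 9.7 to 32.6 estimated counts in each nuclear sample and 0 in all 3 cytoplasmic samples. Against a floor of 3 counts over each cytoplasmic group, that is at least 7.96-fold higher in control nuclei and at least 9.40-fold higher in RNAi nuclei. The other SNHG6 transcripts lay at -0.54 ± 0.36 in control cells (adjusted p = 0.235) and were lower in the nucleus after RNAi (-0.96 ± 0.30, adjusted p = 0.0186), a call lost without RNAi cytoplasmic replicate 2 (-0.53, adjusted p = 0.218) and with limma on TPM. In SNHG5 the retained_intron sum was small, 7.8 to 15.3 estimated counts in control nuclei and 0 in the control cytoplasm, which is at least 4.58-fold higher against the same floor. After RNAi it lay at 9.3, 13.2 and 0 estimated counts in the nuclei and 1.7 and 5.7 in the cytoplasm, and the fractions overlapped.

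SNHG15 has no listed transcript of the retained_intron type, yet it too had forms of either kind. With transcripts divided by whether an exon held whole an intron that most annotated forms remove, a rule likewise chosen after the values had been seen, the intron-holding sum of SNHG15 lay at 24.5, 31.6 and 27.1 CPM in control nuclei and 24.7, 28.1 and 24.4 CPM in RNAi nuclei. In the cytoplasm it lay at 0.61 CPM in the control sample and 0.55 and 0.98 CPM after RNAi. The log2 fold changes were 5.49 ± 0.33 (adjusted p = 1.02e-05) and 5.11 ± 0.25 (adjusted p = 5.65e-07). The estimated cytoplasmic counts of this sum were 10.2 in the control sample and 7.2 and 8.7 after RNAi. It thus passed the filter on low counts through the nuclear samples. That favoured a higher nuclear value, so these p-values are not read as a result. The other SNHG15 transcripts were at 57.4 to 70.2 CPM in nuclear samples and 71.3 to 92.9 CPM in cytoplasmic samples, which did not pass the test in either direction (-0.15 ± 0.15 and -0.42 ± 0.12, the latter under the fold limit at an adjusted p of 0.00962). Under this rule GAS5, SNHG1 and SNHG12 gave log2 fold changes of 3.54, 5.07 and 4.30 in control cells and 3.18, 5.31 and 4.58 after RNAi, so these sums were higher in the nucleus under either rule. For SNHG1 and SNHG12 the filter favoured that direction under either rule. SNHG5, SNHG8 and DANCR had intron-holding forms with too few counts to test, and SNHG6, SNHG16 and ZFAS1 had none listed.

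**Figure D3:**
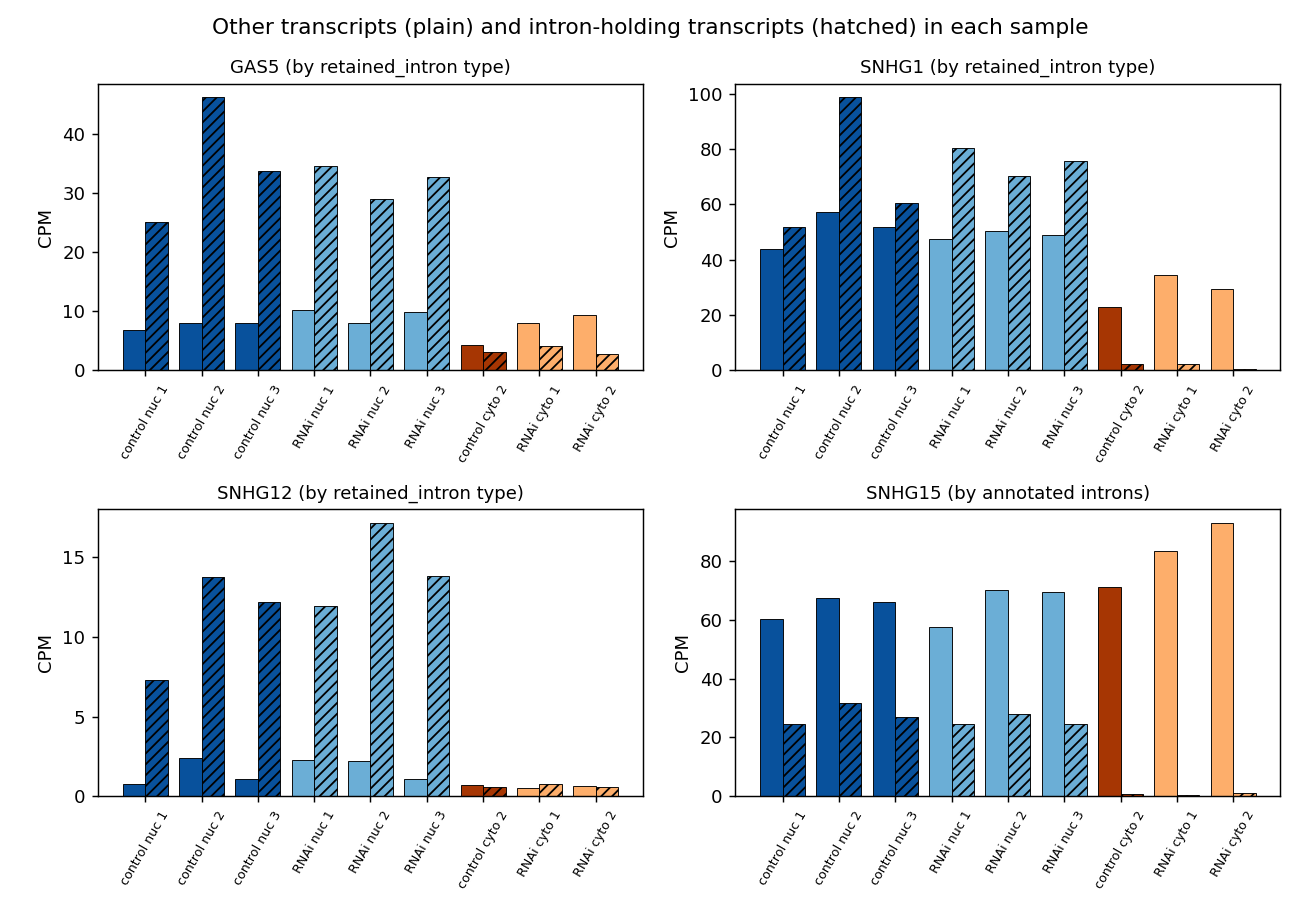
CPM of retained_intron transcripts (for SNHG15, intron-holding ones; hatched bars) and of all other transcripts (plain bars) of 4 members in each sample, coloured by group (nuc, nuclear; cyto, cytoplasmic; the number is the replicate). Hatched bars of GAS5, SNHG1, SNHG12 and SNHG15 are high in the 6 nuclear samples and low in the 3 cytoplasmic ones, while plain bars of SNHG15 lie at 57.4 to 70.2 CPM in the nuclear and 71.3 to 92.9 CPM in the cytoplasmic samples.

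The log2 ratio of retained_intron to other counts within a sample (0.5 added to both) needs no scaling between samples and is given as a description, with no test. In GAS5 the ratio ranged from 1.71 to 2.52 in the 6 nuclear samples and from -1.79 to -0.47 in the 3 cytoplasmic samples. In SNHG1 it ranged from 0.23 to 0.79 and from -5.59 to -3.30. In SNHG15, with intron-holding counts in place of the annotators' type, it ranged from -1.51 to -1.09 and from -7.12 to -6.53. In SNHG5 it ranged from -7.33 to -1.49 and from -8.06 to -3.12, and the fractions overlapped. The ratio was chosen after the values had been seen.

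The comparison the RNAi was designed for is the change of the nuclear/cytoplasmic ratio. It asked whether a host RNA's relative level in the nucleus over the cytoplasm differed after RNAi of WTAP and KIAA1429. No member passed, against 18.2% of all genes tested, 10.4% higher and 7.87% lower. Without TMM scaling 2236 genes were higher and 164 lower, against 1680 and 1273 with it. By edgeR 0 of 10 members had an unadjusted p under 0.05, and DESeq2 also called 0, with 2 members at an unadjusted p under 0.05. GAS5 had the change furthest from 0 of the 10, -0.76 ± 0.34 (adjusted p = 0.179), and passed without control nuclear replicate 1 (-0.88, adjusted p = 0.0501) and with no filter on low counts. Next came SNHG8 at -0.50 ± 0.40, ZFAS1 at -0.49 ± 0.35 and SNHG6 at -0.41 ± 0.49. SNHG16, measured most precisely, was at -0.30 ± 0.14 (adjusted p = 0.19). Of the 10 estimates 9 were below 0, with a median of -0.34 where all genes had -0.05. All 10 share the 1 control cytoplasmic sample, so these signs are not independent. Without TMM scaling the median of all genes moved to 0.23 and that of the members to -0.07. There 9 members lay below the median of all genes, where 8 did with TMM. On log2(TPM + 1) with limma 5 of 10 estimates were below 0, and 8 lay below the median of all genes (0.21).

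Among single transcripts 2 of 59 tested passed for the ratio, GAS5-210 and ZFAS1-204, against 0.969% of all transcripts (0.596% higher and 0.374% lower). Both were lower, and in the cytoplasm the same pair was higher after RNAi, against 2.6% of all transcripts (1.06% higher and 1.54% lower). In the nucleus 0 of the 50857 transcripts tested passed. GAS5-210 had 0 estimated counts in the control cytoplasm and 14.6 and 7.4 in the RNAi cytoplasm. ZFAS1-204, a 5-exon form, had 0 in the control cytoplasm, 14.7 and 10.8 in the RNAi cytoplasm and 20 to 29.7 in the 6 nuclear samples. Both calls rest on a listed 0 in 1 sample, and neither the retained_intron sum of GAS5 (-0.31 ± 0.47, adjusted p = 0.71) nor the gene ZFAS1 (adjusted p = 0.396) passed. By edgeR and by DESeq2 0 of 6 retained_intron sums passed for the ratio, where 18.2% of features did by edgeR, with 1 at an unadjusted p under 0.05. In the nucleus 0 of 6 passed by both tools (4.89% of features, 0 at an unadjusted p under 0.05), and in the cytoplasm 0 of 6 (24.6% of features, 1 at an unadjusted p under 0.05). The SNHG6 sum was at 0 counts in all 3 cytoplasmic samples, so it could not pass in the cytoplasm or for the ratio. The SNHG5 sum was at 0 in the control cytoplasm, and the SNHG16 sum at 0 and 1.3 counts in the RNAi cytoplasm. The counts for the ratio and the cytoplasm are therefore not read as a lack of change.

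RNAi was then compared with control within each fraction. In the nucleus 0 of 10 members passed by edgeR and 0 by DESeq2, where 4.89% of all genes passed by edgeR (2.47% higher and 2.42% lower), and 1 member had an unadjusted p under 0.05. That member was SNHG16, at 439 to 440 CPM in the 3 control samples and 605 to 629 CPM in the 3 RNAi samples. Its groups did not overlap, and its log2 fold change of 0.48 ± 0.08 (adjusted p = 0.0173) fell short of the fold limit by a small margin, which 2 alternatives crossed. The 9 others lay between -0.30 (SNHG8) and 0.37 (SNHG12). GAS5 (-0.04 ± 0.17), SNHG1 (0.04 ± 0.16) and SNHG15 (-0.01 ± 0.10) had estimates close to 0, with standard errors of 0.10 to 0.17.

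In the cytoplasm 1 member rose, SNHG16, where 24.6% of all genes passed, 10.4% higher and 14.2% lower. Without TMM scaling 431 genes were higher and 3200 lower, against 1678 and 2305 with it. It measured 897 CPM in the control sample and 1496 and 1588 CPM after RNAi, a log2 fold change of 0.78 ± 0.12 (adjusted p = 0.00274). SNHG16 was therefore higher after RNAi in every sample of both fractions. The size of the change depended on the scale: without TMM scaling it was 0.52 in the cytoplasm, where the median gene moved by -0.24, and on log2(TPM + 1) with limma it was 0.43 and did not pass (adjusted p = 0.318). GAS5 measured 7.36 CPM in the control cytoplasm and 12.2 and 12.1 CPM after RNAi, 0.72 ± 0.30 (adjusted p = 0.116). Its transcripts outside the retained_intron type did pass in the sums by type, at 4.26 CPM against 7.95 and 9.41 CPM (1.02 ± 0.25, adjusted p = 0.0188), while limma on TPM gave adjusted p of 0.104 and 0.135. ZFAS1 was at 5.72 CPM against 8.57 and 9.29 CPM, 0.64 ± 0.30 (adjusted p = 0.158). Without control nuclear replicate 1 or 2 both GAS5 and ZFAS1 passed as well, which makes 3 members. Of the 10 members 8 had estimates above 0, with a median of 0.32 where all genes had 0.01, again with the 1 control sample shared by all. The median was 0.12 without RNAi cytoplasmic replicate 2 and 0.48 without replicate 1. It was 0.05 without TMM scaling (6 above 0, all genes -0.24) and 0.05 on log2(TPM + 1) with limma (7 above 0, all genes -0.16).

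**Figure D4:**
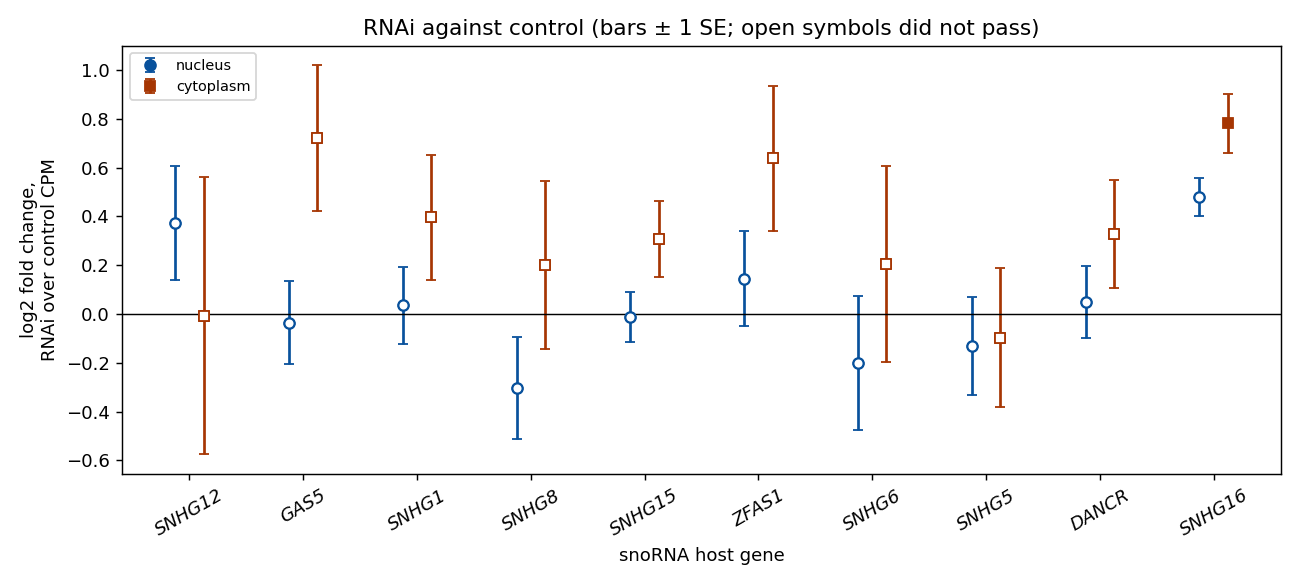
Log2 fold change of RNAi over control CPM for each member in the nucleus (circles) and the cytoplasm (squares), with bars of 1 SE and open symbols for values that did not pass the test. SNHG16 in the cytoplasm, at 0.78, is the only filled symbol, and its nuclear value of 0.48 is the highest of the nuclear values.

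The other snoRNA host long non-coding RNAs, outside the 10 members, were read from a list of 17 genes of which 14 were tested. In control cells 9 were higher in the nucleus and 1 lower, where 28% and 22.7% of all genes were, with a median of 0.78. Among the 9, SNHG14 lay at 0.68 to 1.03 CPM in control nuclei, 0.06 CPM in the control cytoplasm and 0.08 and 0 CPM in the RNAi cytoplasm. It passed the filter on low counts through the nuclear samples, which favoured its nuclear call. SNHG3, host of box H/ACA snoRNAs, lay at 140, 217 and 182 CPM in control nuclei and 47.7 CPM in the control cytoplasm (1.91, adjusted p = 0.000219), and SNHG9 was the one lower in the nucleus (-1.18, adjusted p = 0.0158). For the ratio change 2 of 14 passed, where 18.2% of all genes did, both lower (7.87% of all genes): SNHG29 (-0.63 ± 0.15, adjusted p = 0.0275) and SNHG17 (-0.55 ± 0.19, adjusted p = 0.0941). In the cytoplasm 3 of 14 rose, where 10.4% of all genes did, SNHG4 (0.73, adjusted p = 0.0848), SNHG17 (0.57, adjusted p = 0.0329) and SNHG29, with 235 CPM in the control sample and 363 and 399 CPM after RNAi (0.70, adjusted p = 0.00537). The list's median ratio change was -0.34. Protein-coding genes that hold a snoRNA in GRCh37 gave a median ratio change of 0.06 over 352 tested genes, of which 59 were higher and 26 lower. Those that hold one in RefSeq gave -0.02 over 213 tested genes, of which 30 were higher and 18 lower. Of all genes tested, 10.4% were higher and 7.87% lower for the ratio change.

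Genes of pathways that act on the hosts were counted in the same fits. TOP mRNAs of the translation machinery, which share the start of several hosts, were more cytoplasmic in both conditions, with 11 of 16 lower in control nuclei and 13 of 16 lower in RNAi nuclei and none higher, where 22.7% and 24.9% of all genes were lower. For the ratio change 3 were higher and 3 lower, where 10.4% and 7.87% of all genes were, as in the lists that follow. EIF3E (1.05 ± 0.20), a subunit of initiation factor eIF3, and NPM1 (0.73 ± 0.17), the nucleolar protein nucleophosmin, were higher, and the elongation factors EEF1G (-0.77 ± 0.17) and EEF2 (-0.76 ± 0.17) were lower. Among the snoRNP core proteins, which package mature snoRNAs, 1 of 9 passed for the ratio: NOP58 of the box C/D particle was at 1.55 ± 0.36 (adjusted p = 0.0244), with 12.7 CPM in the control cytoplasm and 3.82 and 3.83 CPM in the RNAi cytoplasm. Of 9 snoRNP assembly factors 3 were higher and 2 lower, led by RPAP3 (1.61 ± 0.47) and RUVBL2 (-0.82 ± 0.23), with ZNHIT6 (0.77 ± 0.25) and NUFIP1 (0.74 ± 0.27). Both RPAP3 and RUVBL2 belong to the R2TP machinery that helps build snoRNPs.

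Of 18 factors of nonsense-mediated decay and the exon junction complex, 4 were higher and 2 lower for the ratio, where 10.4% and 7.87% of all genes were. UPF2 (2.34 ± 0.40) and UPF3B (1.88 ± 0.35), which bridge the exon junction complex to the decay helicase, had the largest changes, followed by the kinase SMG1 (1.81 ± 0.58) and EIF4A3 (1.19 ± 0.29), the core helicase of the junction complex. The 2 that were lower were UPF1 (-0.51 ± 0.14, adjusted p = 0.0453), the decay helicase, and SMG9 (-0.58 ± 0.17, adjusted p = 0.0522), a partner of SMG1. Of 8 mRNAs known as targets of that pathway 1 passed, TBL2, which was lower (-0.58 ± 0.19). The nuclear markers MALAT1 (1.33 ± 0.47), NEAT1 (0.85 ± 0.20) and KCNQ1OT1 (1.58 ± 0.29) were all higher for the ratio. The siRNA target WTAP itself was higher (0.89 ± 0.23), having fallen more in the cytoplasm.

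The 10 members did not share 1 profile over the 9 samples. The root-mean-square difference of a member's centred log2 CPM from the members' mean profile ran from 0.21 for SNHG15 and 0.23 for SNHG8 to 0.90 for SNHG16 and 1.20 for SNHG12. By the same measure, the genes closest to that mean profile among 8269 others with a mean of at least 10 CPM were KIF7 (0.0511), ARC (0.06), EMC3 (0.087), UBAP2, CHTF18, RHBDD3, AKAP17A, TRAIP, IBA57 and SUPT6H (0.102). All 10 of these lay closer to the mean than any member did. They were picked from the 8269 for that closeness, so this is not read as a result about the members.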

How the data were processed

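The authors removed 9 bases from read 1 and 6 from read 2 of Lexogen SENSE mRNA-Seq libraries with cutadapt, merged lanes, and estimated transcript abundance with salmon against Ensembl version 75 of hg19. Versions of these tools are not given in the sources used here. The deposited values were estimated counts per transcript, not normalized between samples, and TPM, which the authors' salmon run scaled by effective transcript length (lengths were deposited too). Transcripts were matched without version number to GENCODE version 44 on GRCh37: 183122 of 215170 (85.1%) matched. Estimated counts were summed per gene, rounded, and kept at 10 or more counts in at least 3 samples (16181 genes and, unsummed, 50857 transcripts). edgeR 4.0.16 (R 4.3.3, TMM, quasi-likelihood test, 4 groups, no block) was fitted on whole tables, with Benjamini-Hochberg adjustment. A SE is the fold change's size over the root of F. Code was tested on simulated data. The alternatives used DESeq2 1.42.0, limma 3.58.1 and other settings of filter, scaling, samples and threshold. Gene lists and members were chosen with earlier results of these data known. Named were the members, their transcripts with at least 10% of the gene's TPM in a group (5% for retained_intron), up to 4 called genes per list with the largest ratio change, the siRNA targets, and the 10 genes nearest the members' mean profile. SNHG3, SNHG4, SNHG9, SNHG14, UPF1, SMG9 and overlapping genes were named after their values were seen. Sequences came from GENCODE and GRCh37.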

Additional observations from a re-analysis of the deposited data

Results flagged for a closer look

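The ratio change after RNAi differed from 0 for 2 member transcripts, a difference between the siRNA groups in the nucleus against cytoplasm contrast. GAS5-210 had a log2 ratio change of -6.84, with 0 estimated counts in the control cytoplasm and 14.6 and 7.4 in the RNAi cytoplasm. ZFAS1-204 had -6.72, with 0 in the control cytoplasm and 14.7 and 10.8 in the RNAi cytoplasm. Because the control cytoplasmic group is at 0 in 1 sample, neither fitted value is a measure of size. Groups held at most 3 samples, so outlying samples were not tested for.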

How the results depend on the processing

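The count of members past both thresholds for the ratio change was 0, and 1 (GAS5) with no filter on low counts; leaving out samples gave 0 to 1. In the nucleus it was 0, and 1 (SNHG16) with library size only or at least 10 counts in every sample. In the cytoplasm it was 1, 2 with the DESeq2 Wald test, no filter or the length offset, 0 with limma on either TPM scale, and 1 to 3 with samples left out, 3 without control nuclear replicate 1 or 2 (GAS5 and ZFAS1 added). For nucleus against cytoplasm it was 7 in RNAi cells, 4 with limma on log2(TPM + 0.1) and 5 to 7 with samples left out, and 6 in control cells, 5 to 7 with samples left out. Member transcripts called for the ratio change numbered 2, but 1 with library size only, no filter or limma on log2(TPM + 0.1), 0 with at least 10 counts in every sample, limma on log2(TPM + 1) or an FDR of 0.05, and 0 to 2 with samples left out. For nucleus against cytoplasm in RNAi cells 34 member transcripts fell to 5 with at least 10 counts in every sample, which leaves few forms to test. The same filter took the retained_intron sums called from 5 to 1 in RNAi cells and from 6 to 1 in control cells, and these sums called numbered 5 and 5 to 6 with samples left out. These counts include forms that passed the filter through nuclear samples and are not read as results. No called member or sum changed direction under any setting. Of the members' values under the alternatives, 14 crossed into a call and 28 out of one, 795 kept direction and side and 63 uncalled ones moved otherwise. For the sums by type, which were chosen after seeing the data, the counts were 12, 29, 896 and 38. Single transcripts were followed only by their counts. Apart from the stricter filters, which test fewer features, the cause was not tested.

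Samples with the same replicate number were only weakly correlated. Correlations of their deviations were 0.185, 0.11 and 0.042 for the nuclear pairs and 0.1 and 0.037 for the RNAi pairs of fractions. Over all genes the replicate block gave 2121 higher and 1917 lower for the ratio change, against 1680 and 1273 without it. Between fractions in control cells it gave 4340 and 3722, against 4538 and 3679. Whether equal numbers mark matched cultures was not tested. With the replicate block the counts were 0 for the ratio change, 0 in the nucleus, 2 in the cytoplasm (GAS5 added), 7 and 5 for the fractions in RNAi and control cells, and 0 and 32 for member transcripts. The retained_intron sums stayed at 5 and 6.

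Depth limits the low members: 3 counts are 0.19 to 0.303 CPM, and SNHG12 in the cytoplasm was at 1.20 to 1.32 CPM, while the single control cytoplasmic sample leaves its own error unmeasured.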
